A study of Drosophila melanogaster with 12 samples.

Results

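Peptidoglycan recognition proteins (PGRPs) bind, and some of them cut, the cell-wall polymer of bacteria. The 10 PGRP genes described here were taken by their FlyBase symbols, whatever their counts, from 17807 gene IDs, and all 10 had a row in every count table. The study sequenced polyadenylated RNA from salivary glands and from wing imaginal discs of Drosophila melanogaster larvae (stage L3), with 3 libraries per tissue and genotype and 12 in all. The controls were Oregon R (genotype label OregonR), and the mutants carried the alleles labelled egg_1473 and Su(var)3-9_06 of the H3K9 methyltransferase genes egg (SetDB1) and Su(var)3-9. Flies of all groups were kept at 25°C, each library pooled the tissue of several animals (25 glands or 25 disc pairs), and no sex or finer age is given. Gland RNA went through oligo-dT enrichment once more than disc RNA, so tissue and library preparation cannot be told apart.

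In flies, the PGRP family sits at the entry of both humoral immune pathways. Transmembrane and intracellular receptors of the family pass a signal from DAP-type peptidoglycan to the Imd cascade and its NF-kappaB factor Relish, and circulating members start the protease cascade that activates Toll. Members with amidase activity degrade peptidoglycan, which removes the ligand, and further members damp the receptors. The fat body is the main site of the systemic response, and gut and trachea mount local Imd responses.

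Gene counts per library came to 17418224 to 57591665 in glands and 19781382 to 28136399 in discs. The 10 PGRP genes together took 0.0160% to 0.0196% of them in control glands, 0.0208% to 0.0222% in mutant-labelled glands, 0.00378% to 0.00435% in control discs and 0.00615% to 0.00670% in mutant-labelled discs. Su(var)3-9 was at 2.12 to 2.96 normalized CPM (counts scaled to a common library size within a tissue) in control glands and 60.6 to 112 in mutant-labelled glands, which goes against the label of those libraries. In discs it was at 24.7 to 25.7 and 3.21 to 4.81. Transcripts of egg were at 4.99 to 9.76 and 6.89 to 7.82 in glands, and at 132 to 142 and 125 to 137 in discs. Groups are therefore called mutant-labelled, and every direction rests on that label. The labels mention technical replicates, so the spread behind the p-values may be technical alone.

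Both tissues carried their defining markers. The 8 gland markers summed to 267264 to 298735 CPM in glands, and the 8 disc markers to 1489 to 2095 CPM in discs. Markers of other tissues were counted too. The gland markers stood at 3396 to 5484 CPM in the disc libraries, where none of the 8 was at 0. The 8 fat body markers summed to 14153 to 19544 CPM in control glands and 26003 to 30456 CPM in mutant-labelled glands, with 4 of 8 called higher and 0 lower. In the same libraries the 7 tracheal markers summed to 77.9 to 87.5 CPM and to 50.9 to 60.3 CPM, with 0 called higher and 1 lower (dysf, log2 -3.70 ± 0.46, adjusted p = 0.00196). The 8 wing disc markers summed to 69.7 to 80.8 CPM and to 45.1 to 49.7 CPM, with 0 called higher and 1 lower. For the 8 hemocyte markers the sums were 27.7 to 51.2 CPM and 61.2 to 65.0 CPM, with 0 called higher and 0 lower. Of all 9441 genes tested in glands, 7.26% were called higher and 5.91% lower, and nothing is read from a single lower call. The part of these shifts in the PGRP values of glands was not tested. In bulk RNA, fewer cells of a type and less RNA per cell cannot be told apart.

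Levels between genes were compared as counts per kilobase of exon, on the CPM scale of library totals. Among the 10 genes, PGRP-LB was the most abundant in control glands (25.2 ± 4.26, mean ± SD, n = 3 here and below), and its range lay above that of PGRP-LC (16.3 ± 5.98). From PGRP-LC through PGRP-LA (13.5 ± 0.896), PGRP-SD (11.1 ± 2.54) and PGRP-LE (9.31 ± 0.536) to PGRP-SA (7.998 ± 1.80), neighbours in this order overlapped in range. PGRP-LF (4.05 ± 0.857) followed, and the amidase genes PGRP-SC1a (1.72 ± 1.34), PGRP-SC2 (1.56 ± 0.403) and PGRP-SC1b (0.444 ± 0.176) came last. The order in mutant-labelled glands differed in that PGRP-SA (12.5 ± 1.07) stood above PGRP-LE (9.49 ± 0.603) and PGRP-SD (3.38 ± 0.644) below it, with no overlap between these neighbours, and PGRP-SC2 (0.968 ± 0.272) above PGRP-SC1a (0.0357 ± 0.0391) and PGRP-SC1b (0.0271 ± 0.00473).

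Control discs had another order of these per-length levels, led by PGRP-LE at 13.5 ± 1.06. PGRP-SA came second at 2.62 ± 0.268, and PGRP-LF (1.45 ± 0.328) and PGRP-LC (1.44 ± 0.1996) overlapped. PGRP-SD (0.901 ± 0.296) and PGRP-LA (0.852 ± 0.0828) overlapped as well, and PGRP-LB was at 0.494 ± 0.194 and PGRP-SC2 at 0.171 ± 0.149. In mutant-labelled discs PGRP-LE (15.8 ± 1.58) still led, and PGRP-LC (6.12 ± 0.683) was second, its range above that of PGRP-SA (2.18 ± 0.598). PGRP-SC1a and PGRP-SC1b had 0 counts in all 6 disc libraries.

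**Figure D1:**
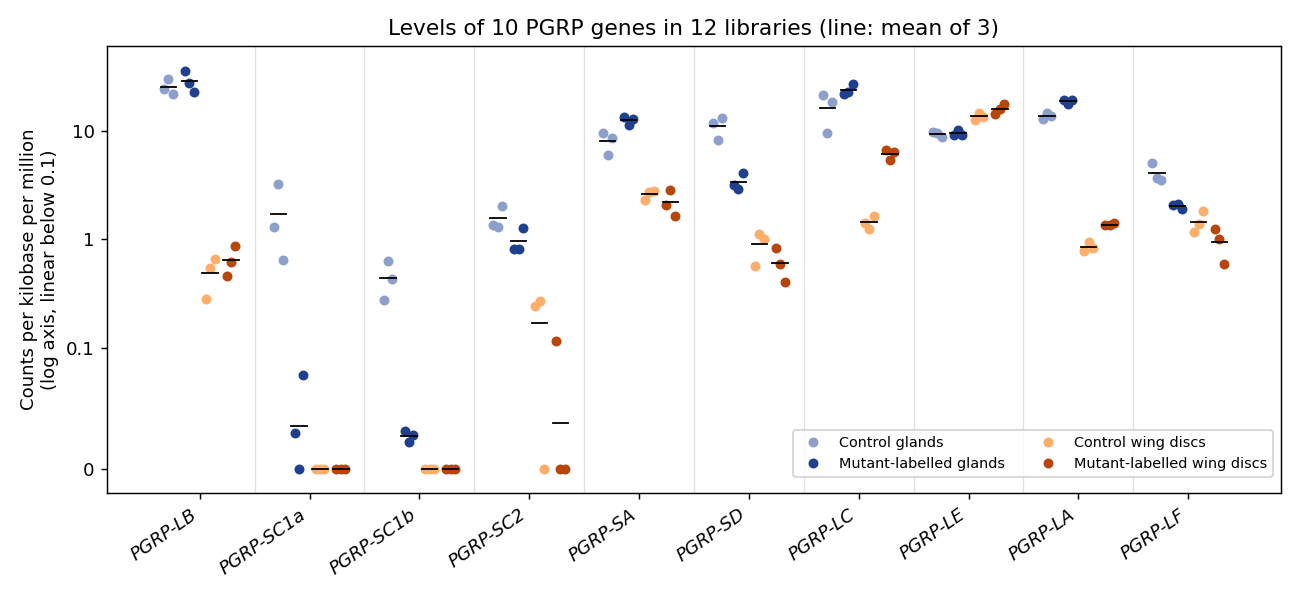
Level of each of the 10 PGRP genes in each library, as counts per kilobase of exon in CPM, on a log axis that is linear below 0.1; points are libraries and the line is the mean of 3. PGRP-LE is the one gene whose disc points lie above its gland points, and PGRP-SC1a and PGRP-SC1b are at 0 in all 6 disc libraries.

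Among the 10 PGRP genes, PGRP-SC1a and PGRP-SC1b had the largest fitted changes between mutant-labelled and control glands. Of the 10 PGRP genes tested, 4 were lower (PGRP-SC1a, PGRP-SC1b, PGRP-SD and PGRP-LF) and 0 higher (quasi-likelihood test of edgeR, adjusted p under 0.05, here and below), against 5.91% of all 9441 genes lower and 7.26% higher (13.2% in either direction). PGRP-SC1a and PGRP-SC1b passed the low-count filter through the control group alone, where they are high, so a call was built into their selection and nothing is read from the count of 4. At an unadjusted p under 0.05, 2 were higher, and DESeq2 called those 2 higher as well, PGRP-LA and PGRP-SA. The median log2 change of the 10 (mutant-labelled over control, here and below) was -0.23, against -0.04 over all genes tested. It includes PGRP-SC1a and PGRP-SC1b, so nothing is read from this median either.

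PGRP-SC1a (FBgn0043576, chromosome 2R, 8709733 to 8710320, 1 exon, BDGP6) encodes a secreted amidase known from the gut. The control glands held 15, 33 and 20 counts of it, the mutant-labelled 1, 0 and 2, so each control library was above all mutant-labelled ones. As normalized CPM these were 0.764, 1.69 and 0.378 against 0.0177, 0 and 0.0510. The ratio of summed counts, scaled to library totals, control over mutant-labelled, was 39.6 (95% interval 12.99 to 197, exact, counting error only). The fitted log2 change was -5.29 ± 0.98 (SE, adjusted p = 0.00959). It was -4.57 without control gland library 2, -4.69 without mutant-labelled 2 and -6.25 without mutant-labelled 3, each over 1.5 times away as a fold, and the call held in each.

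PGRP-SC1b (FBgn0033327, chromosome 2R, 8713446 to 8715094), an amidase gene 3125 bases further along, gave the same picture with 9, 18 and 37 counts in control and 3, 2 and 2 in mutant-labelled glands. Its scaled ratio of summed counts was 16.0 (95% interval 7.32 to 41.3) and its log2 change -3.82 ± 0.55 (adjusted p = 0.00357). The genes are close paralogs, and no source used here says how reads shared between them were counted, so the split between them is uncertain. Summed into a single gene they changed by -4.53 on the log2 scale (adjusted p = 0.00243).

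PGRP-SC2 (FBgn0043575, chromosome 2R, 8716950 to 8717695), the third amidase gene of this cluster, did not pass. It had 20, 17 and 79 counts in control and 35, 33 and 42 in mutant-labelled glands, or 1.13 ± 0.325 and 0.762 ± 0.269 normalized CPM. The groups overlapped (log2 -0.60 ± 0.39, adjusted p = 0.374). Midgut cells express PGRP-SC genes, and of 10 midgut markers 9 stayed under 1 CPM in every control gland library, 7 of them at 0 in all. The exception was the protease gene Jon99Ci, which was lower in mutant-labelled glands too (log2 -5.29 ± 1.30, adjusted p = 0.0310) and was chosen after its values were seen. Jon99Ci was lower in mutant-labelled discs as well (log2 -4.53 ± 0.66, adjusted p = 0.000504), where PGRP-SC1a and PGRP-SC1b had 0 counts. The 10 midgut markers summed to 0.287 to 4.14 CPM in control glands (median 0.455) and to 0.208 to 0.365 CPM in mutant-labelled glands. In discs the sums were 1.10 to 1.52 CPM in control and 0 to 0.533 CPM in mutant-labelled libraries. At such levels Jon99Ci may have passed the low-count filter through the controls alone, so nothing is read from its calls. The part of Jon99Ci in the result was not tested.

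PGRP-LB (FBgn0037906, chromosome 3R, 11452849 to 11460552), the amidase that limits Imd signalling in gut and fat body, did not pass. Control glands were at 43.3, 47.3 and 37.6 normalized CPM and mutant-labelled glands at 64.0, 48.3 and 45.1, with overlap (log2 0.30 ± 0.20, adjusted p = 0.389).

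Of the secreted receptor genes PGRP-SD and PGRP-SA, PGRP-SD was lower in mutant-labelled glands and PGRP-SA did not pass. PGRP-SD (FBgn0035806, chromosome 3L, 7651180 to 7651900), a secreted recognition protein, was at 8.61, 5.29 and 9.32 normalized CPM in controls and at 2.30, 2.05 and 3.32 in mutant-labelled glands. Every control library was above every mutant-labelled one, 3.05-fold on average (log2 -1.61 ± 0.30, adjusted p = 0.0109), although the call was lost without mutant-labelled gland library 2 (adjusted p = 0.0530). Of its exon, 4.85% overlaps CG7492 on the other strand, which was at 40.2 ± 1.49 and 45.6 ± 3.33 normalized CPM.

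PGRP-SA (FBgn0030310, chromosome X, 11561643 to 11562779), the sensor of Lys-type peptidoglycan for Toll, was at 9.68, 5.44 and 8.62 normalized CPM in control and 13.9, 11.3 and 14.7 in mutant-labelled glands. These groups did not overlap, and the log2 change of 0.74 ± 0.24 missed the threshold (adjusted p = 0.0829). It passed with DESeq2 (adjusted p = 0.0483), with the 12 libraries fitted together (0.0135) and with a replicate block (0.0256).

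Imd receptor genes of glands did not pass. PGRP-LC (FBgn0035976, chromosome 3L, 9338810 to 9348336), the main transmembrane receptor, was at 79.5, 32.0 and 67.3 normalized CPM in control and 82.0, 82.7 and 113 in mutant-labelled glands. The groups did not overlap, but control library 2 stood far below the other control libraries. The log2 change was 0.64 ± 0.33 (adjusted p = 0.268). PGRP-LE (FBgn0030695, chromosome X, 15801153 to 15803880), the intracellular receptor, was at 18.6 ± 1.47 and 20.4 ± 1.10 (log2 0.14 ± 0.15, adjusted p = 0.623).

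PGRP-LA (FBgn0035975, chromosome 3L, 9334332 to 9338336), which promotes Imd signalling in barrier epithelia, narrowly missed the threshold. Control glands were at 26.7, 27.1 and 28.1 normalized CPM and mutant-labelled glands at 41.0, 36.1 and 44.6, without overlap (log2 0.57 ± 0.16, adjusted p = 0.0505). DESeq2 gave an adjusted p of 0.0143 and the 12 libraries fitted together 0.00122.

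PGRP-LF (FBgn0035977, chromosome 3L, 9349609 to 9351489) encodes a transmembrane protein that damps signalling by PGRP-LC, and it was lower. Control glands were at 6.88, 4.42 and 4.65 normalized CPM and mutant-labelled glands at 2.83, 2.83 and 2.91, again without overlap (1.86-fold lower, log2 -0.89 ± 0.24, adjusted p = 0.0473). The call was lost without any of the control libraries 1 and 3 and the mutant-labelled libraries 1, 2 and 3 (adjusted p 0.0813 to 0.159), and with no low-count filter (0.0630), with the 20 most abundant genes removed (0.0548) or with 12 libraries fitted together (0.0514). Of its exons, 44.4% overlap UGP on the other strand, and no strand setting is stated. UGP was far more abundant (143 ± 21.5 and 186 ± 20.5 normalized CPM, log2 0.37 ± 0.20, adjusted p = 0.274).

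**Figure D2:**
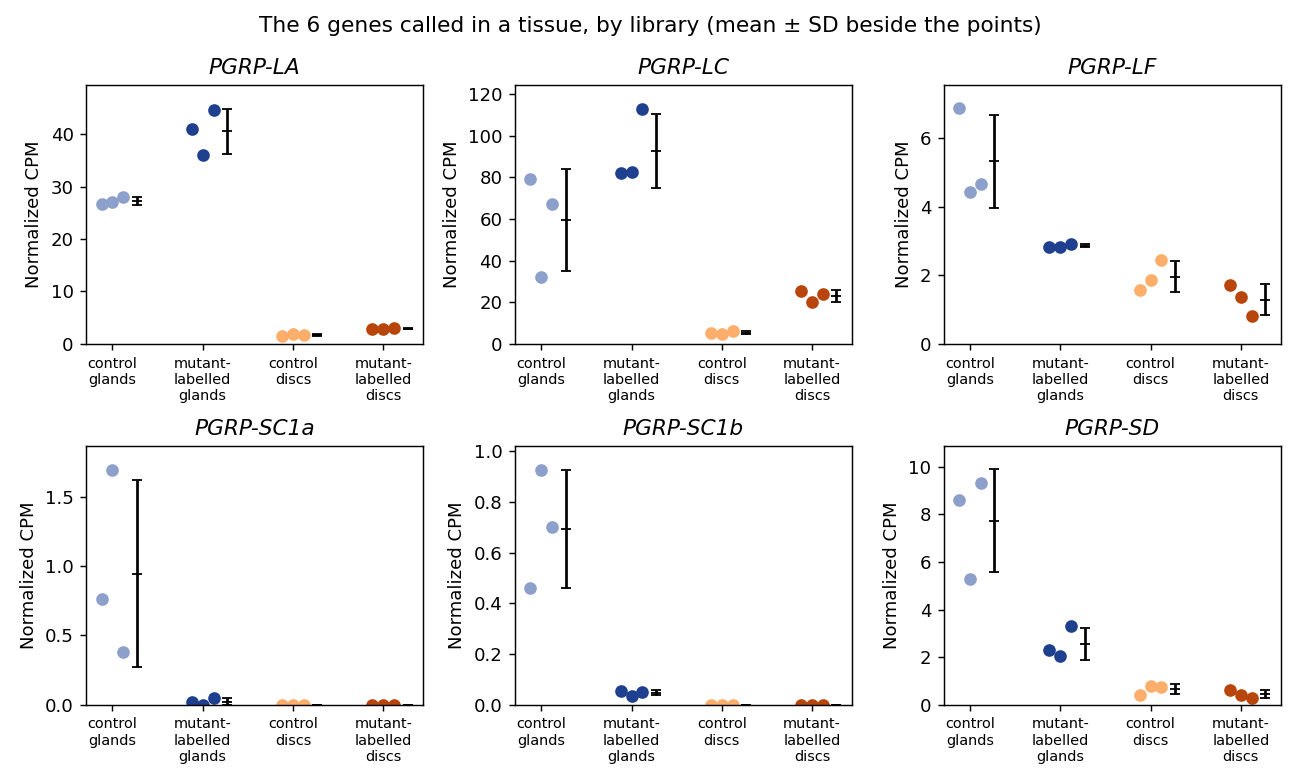
Normalized CPM in each library for the 6 PGRP genes that passed the threshold in a tissue; the axes differ between panels and the bars beside the points are mean ± SD of 3 libraries. PGRP-LC rises from 4.66 to 6.16 in control discs to 20.1 to 25.5 in mutant-labelled discs, while in glands its control libraries spread from 32.0 to 79.5.

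In mutant-labelled wing discs the clearest difference was a rise of PGRP-LC. Of 7 PGRP genes that had enough counts to be tested, 2 were higher (PGRP-LC and PGRP-LA) and 0 lower, against 16.0% of all 9379 genes higher and 15.2% lower (31.3% in either direction). At an unadjusted p under 0.05 it was 3 higher and 0 lower, and with DESeq2 1 and 0. The median of the 7 was 0.26 and that of all genes tested 0.00 on the log2 scale.

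PGRP-LC was at 5.27, 4.66 and 6.16 normalized CPM in control discs (93 to 169 counts) and at 25.5, 20.1 and 23.8 in mutant-labelled discs (564 to 583 counts). All mutant-labelled libraries lay above every control library. The change was 4.28-fold (log2 2.10 ± 0.14, adjusted p = 2.57e-06), and it was called in all 14 alternatives, with log2 values of 2.01 to 2.22. The gene has 10 annotated transcripts, which gene counts do not separate. Over the same disc libraries the gland markers summed to 3454 to 5484 CPM in controls and 3396 to 3770 in the mutant-labelled, the tracheal markers to 1324 to 1491 and 1286 to 1307, and the fat body markers to 294 to 500.1 and 359 to 773. Among all genes tested in discs 16.0% were higher and 15.2% lower. Of 7 tracheal markers 1 was higher and 2 lower, and of 8 fat body markers 1 was higher and 0 lower. The higher one was apolpp, which encodes the main lipoprotein of the hemolymph (log2 2.18 ± 0.26, adjusted p = 0.000145). Of 8 hemocyte markers 0 were higher and 5 lower (0 and 7 at an unadjusted p, 0 and 6 with DESeq2), and their sums overlapped (86.8 to 140.0 and 67.3 to 163 CPM). Of 8 wing disc markers 0 were higher and 5 lower (0 and 7, 0 and 6). The part of these shifts in the PGRP values was not tested.

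PGRP-LA, which ends 473 bases before PGRP-LC on the same strand, was at 1.61, 1.95 and 1.75 normalized CPM in control discs and at 2.89, 2.81 and 2.96 in mutant-labelled discs. The groups did not overlap (1.63-fold higher, log2 0.70 ± 0.24, adjusted p = 0.0466). With 36 to 79 counts per library this call was fragile: it was lost in 10 of 14 alternatives, among them every removal of a single library (adjusted p 0.0781 to 0.119) and DESeq2 (0.0517), where the log2 value stayed within 0.64 to 0.78. PGRP-LF, which starts 1272 bases after PGRP-LC, did not follow: it was at 1.56, 1.85 and 2.44 in control and 1.70, 1.35 and 0.803 in mutant-labelled discs, with overlap (log2 -0.61 ± 0.34, adjusted p = 0.207). UGP, which overlaps it, was at 89.7 ± 2.02 and 79.0 ± 5.25 there. No other gene lies between these 3.

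PGRP-LE, the most abundant PGRP transcript of discs, was at 25.5, 29.9 and 27.5 normalized CPM in control and 30.2, 32.9 and 36.3 in mutant-labelled discs. The groups did not overlap, but the difference was small and did not pass (log2 0.26 ± 0.10, adjusted p = 0.0708, 0.0305 without mutant-labelled disc 1). PGRP-SA (log2 -0.23 ± 0.27, adjusted p = 0.553), PGRP-SD (log2 -0.53 ± 0.45, adjusted p = 0.399) and PGRP-LB (log2 0.41 ± 0.41, adjusted p = 0.483) overlapped between the groups. PGRP-LB had 11 to 37 counts and PGRP-SD 7 to 20 per disc library. PGRP-SC2 had 4, 4 and 0 counts in control and 2, 0 and 0 in mutant-labelled discs, and with PGRP-SC1a and PGRP-SC1b was not tested.

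**Figure D3:**
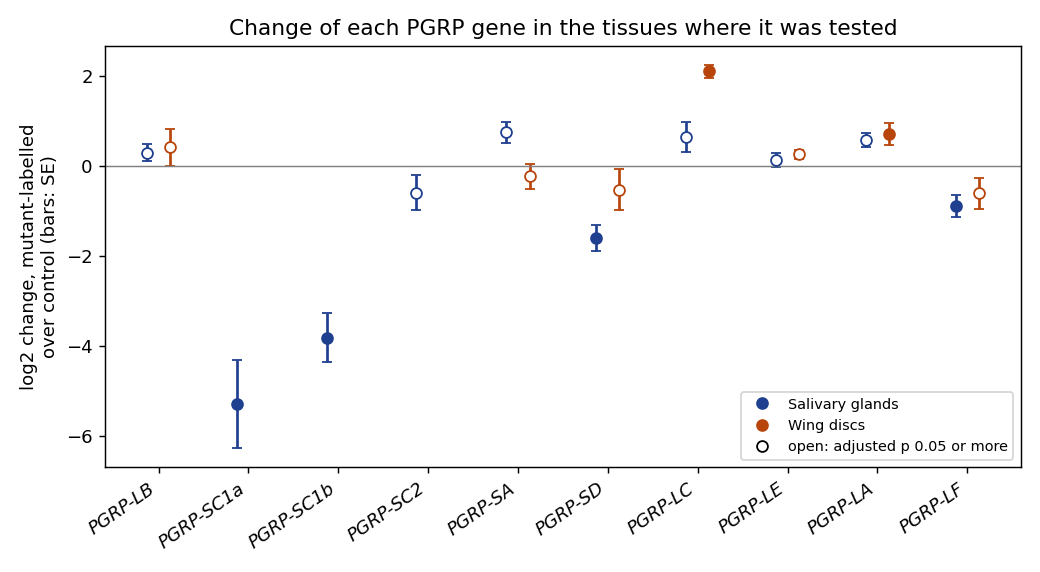
Log2 change of each PGRP gene, mutant-labelled over control, in glands and discs, with SE as bars; filled points passed an adjusted p of 0.05 and genes without a disc point were not tested there. PGRP-SC1a (-5.29) and PGRP-SC1b (-3.82) are the lowest points, in glands, and PGRP-LC in discs (2.10) is the highest.

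The change of PGRP-LC was larger in discs than in glands. Its difference of changes, discs minus glands, was 1.38 ± 0.36 on the log2 scale in a fit of all 12 libraries (adjusted p = 0.0301), the one gene of 9 tested that passed, against 4.47% of 10185 genes higher and 5.62% lower (10.1% in either direction). The call was lost on removal of any single library except control gland 2 and mutant-labelled gland 3 (adjusted p 0.0524 to 0.0928), with log2 values of 1.17 to 1.56 in those cases. PGRP-SA went the other way without passing (-1.06 ± 0.33, adjusted p = 0.0596) and passed with DESeq2 (0.0327). For PGRP-LA (0.06 ± 0.18, adjusted p = 0.903), PGRP-LE (0.04 ± 0.17, 0.935), PGRP-LF (0.19 ± 0.40, 0.843), PGRP-LB (0.02 ± 0.40, 0.990), PGRP-SD (0.998 ± 0.50, 0.260) and PGRP-SC2 (-1.36 ± 1.47, 0.584) a difference between tissues was not detected. The value of PGRP-SC2 rests on the 4, 4 and 0 and 2, 0 and 0 counts of discs, and it moved between -3.70 and -0.76 when single libraries were left out. With no disc count, the difference of PGRP-SC1b could not be estimated, and PGRP-SC1a was not tested.

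Control glands stood above control discs for 8 of 8 PGRP genes tested, where 39.2% of all 9402 genes were higher in glands and 41.1% lower (80.2% in either direction). PGRP-LB led with a log2 difference, glands minus discs, of 7.02 ± 0.29, followed by PGRP-LA (5.37 ± 0.15), PGRP-SD (5.0035 ± 0.34), PGRP-LC (4.89 ± 0.36) and PGRP-SC2 (4.64 ± 0.70). PGRP-SA (3.01 ± 0.26), PGRP-LF (2.85 ± 0.29) and PGRP-LE (0.85 ± 0.13) differed less (adjusted p of the 8 at most 0.000364). PGRP-SC2 passed the low-count filter through the glands alone, and without control disc 3 it stood at 3.96. PGRP-SD, with 9, 16 and 20 counts in control discs, also needed the glands to pass. A higher call in glands was built into the selection of both. The log2 differences of all these genes depend on the scaling. With library totals alone the median of all genes moved from -0.08 to -1.47, the share of called genes that were higher in glands fell from 48.8% to 22.2%, and PGRP-LE turned to -0.53 (adjusted p = 0.00596), while the other 7 stayed higher in glands. PGRP-SC1a and PGRP-SC1b had 68 and 64 counts over the control glands and 0 over 69203986 gene counts of control discs. Taking 3 counts over all control discs as the floor, they were at least 17.5-fold and 16.5-fold higher in glands. These 2 bounds are on library totals, unlike the log2 differences first given.

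Gland marker transcripts were counted in the disc libraries at a low share of their gland level. On library totals, the 6 Sgs glue genes stood in control discs at 1.53% of their mean level in control glands (1.25% to 1.98% by library), and in mutant-labelled discs at 1.27% (1.19% to 1.32%) of that in mutant-labelled glands. PGRP-LB was at 1.96% (1.11% to 2.62%) and 2.28% (1.61% to 3.07%), close to the glue genes. The 8 fat body markers, at 2.30% and 1.84%, were close to PGRP-LB as well. PGRP-LA was at 6.29% and 7.35%, PGRP-SD at 8.15% and 18.1%, PGRP-LC at 8.88% and 25.9%, PGRP-SA at 32.7% and 17.4%, and PGRP-LF at 35.9% and 46.3%. PGRP-LE was at 145% and 167%. What part gland or fat body RNA has in the disc levels was not tested.

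**Figure D4:**
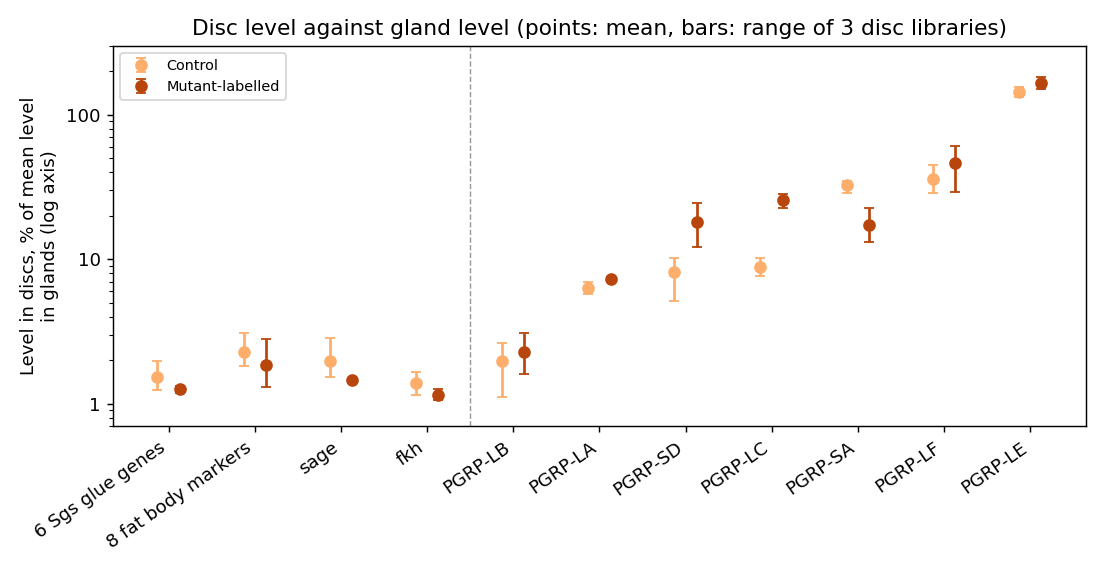
Level in disc libraries as a percentage of the mean level in glands of the same genotype label, on a log axis, for gland and fat body markers (left of the dashed line) and 7 PGRP genes; points are means and bars the range of 3 disc libraries. PGRP-LB (1.96% and 2.28%) sits near the glue genes (1.53% and 1.27%) and the fat body markers (2.30% and 1.84%), and PGRP-LC moves from 8.88% to 25.9%.

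The 3 further PGRP genes gave values beside the 10. PGRP-SB1 (chromosome 3L, 16727299 to 16727989), which encodes a secreted amidase, was lower in both tissues, from 6.99 ± 3.66 to 1.88 ± 0.700 normalized CPM in glands (log2 -1.90 ± 0.46, adjusted p = 0.0306, lost without either of control libraries 1 and 3 or any mutant-labelled library, 0.0506 to 0.109) and from 1.36 ± 0.413 to 0.110 ± 0.0564 in discs (log2 -3.58 ± 0.51, adjusted p = 0.000502). In discs PGRP-SB1 had 29, 36 and 27 counts in control and 4, 2 and 2 in mutant-labelled libraries. There it passed the low-count filter through the control group alone, so a call was built into its selection. PGRP-SB2, its neighbour at 10 bases, was at 2499, 215 and 1490 normalized CPM in control and 571, 10.03 and 132 in mutant-labelled glands. That spread left its log2 change of -2.56 ± 1.27 short of the threshold (adjusted p = 0.247, 0.00113 with a replicate block), and leaving out single libraries moved it between -4.30 and -1.83. PGRP-LD had at most 7 counts in any library and was not tested.

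Of 13 genes of the Imd branch from imd to Relish, 1 was higher and 0 lower in glands (2 and 0 at an unadjusted p and with DESeq2), near the 7.26% and 5.91% of all genes, with a median of 0.07 against -0.04. It was Fadd, the adaptor between imd and the caspase Dredd (log2 1.15 ± 0.22, adjusted p = 0.0129, 0.0517 without control gland 3). In discs 3 of 13 were higher and 1 lower, a share near the 31.3% called among all genes, so nothing is read from the count, with a median of 0.13 against 0.00: Fadd (0.59 ± 0.15, adjusted p = 0.0158), key (0.24 ± 0.07, 0.0243) and IKKbeta (0.26 ± 0.08, 0.0350), the last 2 coding for the kinase complex that acts on Relish, and akirin, a nuclear cofactor of it (-0.20 ± 0.06, 0.0313). Each of these 4 disc calls was lost without some single library: Fadd without control 2 or 3 or mutant-labelled 2 (0.0545 to 0.0668), key without control 1 or 2 or mutant-labelled 3 (0.0529 to 0.121), IKKbeta without control 2 or 3 or mutant-labelled 1 or 3 (0.0520 to 0.142) and akirin without every library but mutant-labelled 1 (0.0577 to 0.124).

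Among 8 negative regulators of Imd, 0 were higher or lower in glands (0 and 2 at an unadjusted p, 0 and 0 with DESeq2), with a median of -0.32 against -0.04 for all genes. In discs 2 were higher and 1 lower, near the 16.0% and 15.2% of all genes, with a median of 0.01. dnr1, an inhibitor of Dredd, rose 2.29-fold (log2 1.19 ± 0.09, adjusted p = 6.60e-06). pirk, which acts on PGRP-LC, rose 2.26-fold (log2 1.18 ± 0.34, adjusted p = 0.0248, lost without any single library but mutant-labelled 2, 0.0546 to 0.0784). POSH fell by 0.29 ± 0.06 on the log2 scale (adjusted p = 0.00673).

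The genes upstream of Toll, where PGRP-SA acts, moved differently in each tissue. In glands 4 of 11 tested were higher and 0 lower (7 and 0 at an unadjusted p, 6 and 0 with DESeq2), where 7.26% of all genes were higher, with a median of 0.85 against -0.04 for all genes. GNBP3, a sensor of fungal glucans, rose 3.70-fold (log2 1.89 ± 0.26, adjusted p = 0.00309). The serpin gene nec (1.68 ± 0.30, 0.0103) and the protease genes SPE (1.48 ± 0.27, 0.0105) and Hayan (1.25 ± 0.32, 0.0416) rose as well, Hayan losing its call without control 1 or 2 or mutant-labelled 1 or 3 (0.0558 to 0.122). The fat body makes these proteins, 4 of its 8 markers were higher in the same libraries, and their part in the result was not tested. In discs 2 were higher and 3 lower, where 31.3% of all genes were called, with a median of -0.46 against 0.00: GNBP2 (1.45 ± 0.11, 5.90e-06) and GNBP1, the partner of PGRP-SA (0.34 ± 0.07, 0.00538), against grass (-2.34 ± 0.22, 2.40e-05), Hayan (-0.46 ± 0.09, 0.00324) and spz (-0.73 ± 0.16, 0.00745). With the 12 libraries fitted together the disc calls of Fadd, key, IKKbeta, akirin, pirk, POSH, GNBP1 and Hayan were lost (adjusted p 0.0586 to 0.395).

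Antibacterial peptide genes, the targets of Imd, had 0 of 11 higher and 5 lower in glands (1 and 6 at an unadjusted p, 0 and 5 with DESeq2), where 5.91% of all genes were lower, with a median of -1.53 against -0.04. DptB (-5.36 ± 0.48, adjusted p = 0.000489), AttC (-3.37 ± 0.52, 0.00539), CecA1 (-3.001 ± 0.57, 0.0122) and CecB (-4.90 ± 1.01, 0.0146) were among them, and the calls of CecA1 (0.0506 without control 1) and CecB (0.0526 to 0.0618 without control 1 or mutant-labelled 1 or 2) rested on single libraries. CecB was at -7.85 on the log2 scale without mutant-labelled 3, -4.27 without mutant-labelled 1 and -4.28 without mutant-labelled 2. Whether the peptide genes passed the low-count filter through the control glands alone was not tested. Nothing is read from the count of 5 or from the median. In discs 2 of 11 could be tested and 0 passed with edgeR, at an unadjusted p or with DESeq2.

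**Figure D5:**
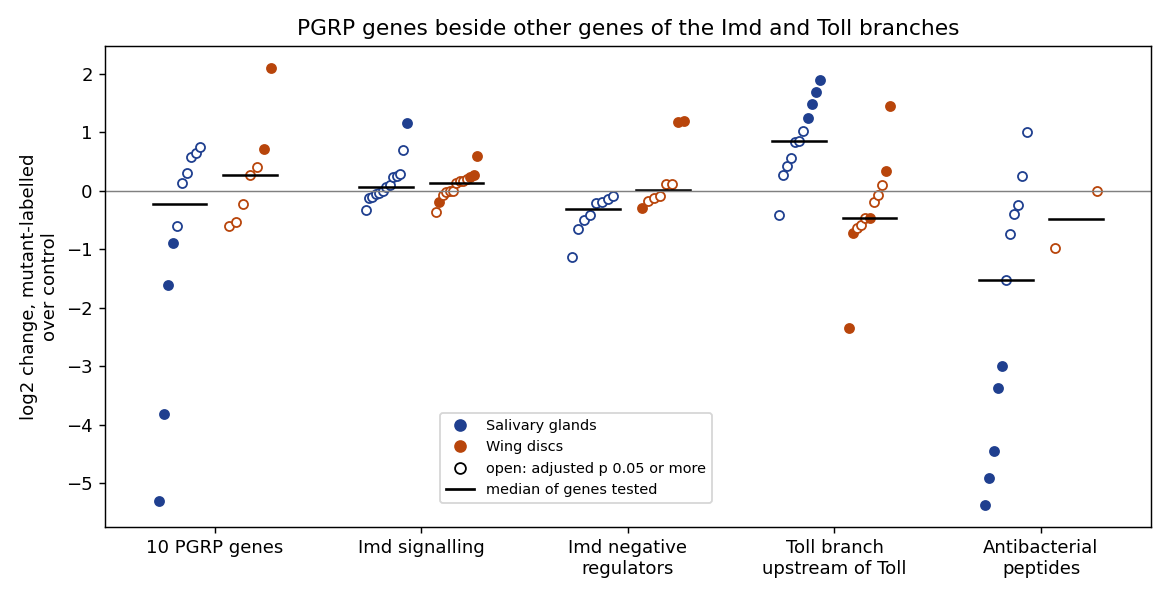
Log2 change, mutant-labelled over control, of the PGRP genes and 4 lists of Imd and Toll branch genes in glands and discs; each point is a gene tested, filled where it passed an adjusted p of 0.05, and the line is the list's median. In glands the median of genes upstream of Toll is 0.85. That of antibacterial peptides is -1.53, and nothing is read from it or from the PGRP median in glands, for the limits given in the text.

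Genes whose levels ran most like a called PGRP gene were ranked by Pearson's correlation of log2 CPM over the 12 libraries, among 10185 genes. For PGRP-LC these were CG10337 (r = 0.994) and pst (0.992), for PGRP-LA VhaSFD, a subunit of the vacuolar proton pump (0.998), and CG1105 (0.998). For PGRP-SD they were Ugt37C1, a sugar transferase (0.991), and ave (0.990), for PGRP-LF Eo, an ecdysone oxidase (0.986), and PGRP-SD (0.985), and for PGRP-SC1b CG4594 (0.982) and Acbp2 (0.980). The 12 libraries fall into 2 tissues, which raises such correlations for every gene that differs between them.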

How the data were processed

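The authors deposited gene counts per FlyBase ID, whole numbers not normalized. cutadapt, HISAT2, featureCounts, BDGP6 and dm6 are named in the submitters' processing notes, without versions or options, and strand and multi-mapping settings are not given in the sources used here. Of 17807 IDs, 17710 had a symbol and an Ensembl release 115 model (BDGP6), from which exon lengths came. Deposited transposon tables were not used.

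Within each comparison, genes were kept by filterByExpr (minimum count 10), scaled by TMM and tested with edgeR 4.0.16 (R 4.3.3) quasi-likelihood F tests, adjusted by Benjamini-Hochberg across every gene tested (threshold 0.05). The 12-library fit shares its spread between tissues, although edgeR's biological coefficient of variation was 0.292 for glands and 0.102 for discs. SE was obtained from the unshrunken log2 change and F (change over root F). DESeq2 1.42.0 was an alternative. In each library 3 counts came to 0.0521 to 0.172 CPM; intervals and floors cover counting error only. The fit was tested on simulated data. Chi-square per gene between libraries of a group was 4.24 to 289, beyond sampling noise.

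The members, lists and rules were chosen with earlier results of these data known. Named were all 10 PGRP genes, the other 3, the targeted genes, up to 4 called genes per list and tissue with the lowest p, and the 2 genes most alike per called member. spz, Jon99Ci, UGP and CG7492 were chosen after their values were seen. Of 12 Toll-branch symbols, 11 matched.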

Additional observations from a re-analysis of the deposited data

Results flagged for a closer look

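The change differed between the tissues, by the interaction term of the 12-library fit (discs minus glands, log2, adjusted over all genes tested), for PGRP-LC and 9 other named genes, with the limit on DptB given at its value. PGRP-LC stood at 1.38 (adjusted p = 0.0301), the Dredd inhibitor gene dnr1 at 1.31 (0.0233) and GNBP2 at 1.11 (0.0273). Lower in discs than in glands were the changes of GNBP3 (-2.03, 0.000440), grass (-2.96, 0.000428), SPE (-2.14, 0.00277), Hayan (-1.77, 0.00578) and nec (-2.39, 0.00234). The value of Su(var)3-9 was -7.77 (4.15e-08). That of DptB was 5.27 (0.00309, and 4.66 on the log2 scale without control gland 3), but DptB had too few disc counts for a test within discs and was kept through the glands, so this value does not show that its change differs between the tissues. The calls of PGRP-LC (0.0524 to 0.0928, 10 of 12 libraries), GNBP2 (0.0514 to 0.0762, 9 of 12) and dnr1 (0.0513 to 0.0566, 3 of 12) were lost when single libraries were left out.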

How the results depend on the processing

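Of 492 values of PGRP genes under the alternatives, 448 kept direction and call, 29 lost and 8 gained a call, and 7 turned sign. PGRP-LE between control tissues was -0.53 with library totals alone, a setting chosen after seeing the data, which also moved the higher share of called genes in the difference of changes from 44.3% to 59.1% and the median of all genes in glands from -0.04 to -0.15. Small values turned sign when single libraries were left out: the difference of changes of PGRP-LA (-0.010 to 0.15) and PGRP-LB (-0.20 to 0.39), PGRP-SB2 in discs (-0.25 to 0.019), and egg in glands (-0.32 to 0.088) and discs (-0.056 to 0.0038). The count of PGRP genes called in glands was 2 to 4 with single libraries left out (4 in full) and 6 with DESeq2. In discs it was 1 in place of 2 with DESeq2, with no low-count filter, with library totals alone and with the replicate block, and 1 to 2 without single libraries. For the difference of changes it was 2 with DESeq2 and 0 to 1 without single libraries (1 in full).

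Genes called in all were 1243 in glands (2360 with the 12 libraries fitted together, 705 to 1512 without single libraries), 2932 in discs (1032 together, 1883 to 2984) and 1027 for the difference (1574 with DESeq2, 662 to 1366). The cause was not tested. By the labels used here the replicates share a number, and what else same-numbered libraries share was not tested. Correlations of same-numbered libraries were 0.00911 to 0.307 in glands and -0.075 to 0.115 in discs. They were -0.0585 to -0.0311 between control tissues and 0.0265 to 0.118 between mutant-labelled tissues. Every library was most like its own number in the last of these pairs of groups. In glands this held for libraries 2 and 3, in discs for library 3, and between control tissues for no library. The replicate block gave 5 called PGRP genes in glands, with PGRP-SA gained, and 1 in discs, with PGRP-LA lost.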
